A study of Mus musculus with 4 samples.

Results

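Chemokines are small secreted proteins that guide the movement of leukocytes, and they act through G protein-coupled receptors on the responding cell. Many of their genes lie in tandem arrays that arose by duplication, so the inflammatory CC ligands sit together on mouse chromosome 11, most ELR-type and interferon-inducible CXC ligands on chromosome 5, and several CC receptors on chromosome 9. Macrophages both make these ligands and carry receptors such as CX3CR1, CCR1, CCR2 and CXCR4, and transcription of the inflammatory ligands is classically driven by NF-kB, AP-1 and interferon-regulated factors.

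The 35 genes described here were 27 ligands and 8 receptors of this system, taken as a gene list from 21952 genes analysed in the peak lists of the ATAC-seq series. Chromatin accessibility was measured in bone marrow-derived macrophages (BMDMs). These are bone marrow cells of adult C57BL/6 mice grown for 6 to 8 days in medium with 20% L929-conditioned medium. That range is the one in the study's culture methods, and the study names a single day within it for ATAC-seq. WT cells carried floxed H3f3a and H3f3b, the genes of the histone variant H3.3, without Cre, and cKO cells carried the same floxed genes together with LysM cre/cre, which drives recombination in myeloid cells from the Lyz2 locus. There were 2 libraries per genotype, named WT1, WT2, cKO1 and cKO2, each a biological replicate by its title. The comparison asks where loss of H3.3 goes with a difference in accessibility at these genes. As WT had no Cre, loss of H3.3 cannot be told apart here from the presence of Cre at Lyz2. A gene was assigned every merged peak region that overlapped its GENCODE gene body or the 10 kb on either side. Under this rule 120 of the 71243 regions of the series belonged to 34 of the genes, and Ccl8, a monocyte-attracting CC ligand, had none. Because the clusters are dense, 19 of the 120 regions lay in the windows of 2 or more of the genes, so neighbouring genes are not independent of each other.

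The 4 peak lists held 51955 to 64939 peaks covering 28.4 to 35.2 Mb, the shortest being cKO1 and the longest WT2. The number of the 120 regions called was 98 in WT1, 111 in WT2, 89 in cKO1 and 101 in cKO2. An accessible region within the body of H3f3a (chr1:180811715-180812055), whose exon 2 the study floxed, had a percentile of 5.02 in WT1 and 19.1 in WT2. It was not called in either cKO list, as were 7.22% of the regions near any analysed gene that both WT lists held. H3f3b, which the study floxed over its exons, kept a called region over its start in all 4 lists, with percentiles of 94.2 and 95.5 in WT and 87.0 and 81.4 in cKO. Whether H3f3b was deleted in all cells of the cKO libraries cannot be read from these lists. The study reports that H3f3b deletion appeared variable, complete in some cKO samples and partial in others. It also reports depletion of H3.3 protein in cKO BMDMs by western blot. The promoters of 7 of 7 macrophage markers were called in every list, those of 3 T cell and 3 fibroblast markers in none, and those of the dendritic cell markers Flt3, Zbtb46 and Siglech in every list. Among 3 B cell markers Ms4a1 alone was called, in all 4 lists.

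The sequences below are those of regions that the results turn on, each 151 bases around the summit of its strongest peak on the plus strand of mm10. Capitals mark letters that match a motif searched, namely NF-kB by its usual 10-base consensus, AP-1 (TGACTCA or TGAGTCA), the ISRE core (GAAANNGAA), PU.1 (GAGGAAGT) and C/EBP (TTGCNNAA), on both strands. The first was the region between Ccl2 and Ccl7 that was called in both cKO lists alone, the second the neighbouring region that ranked higher in cKO, and the third the region upstream of Ccl5 that was called in both WT lists alone. The fourth lay beside Ccl9 and was lost, the fifth beside Cxcl2 and was gained, and the remaining ones ranked lower in cKO.
Ccl2-Ccl7 gained region, chr11:82038557-82038707: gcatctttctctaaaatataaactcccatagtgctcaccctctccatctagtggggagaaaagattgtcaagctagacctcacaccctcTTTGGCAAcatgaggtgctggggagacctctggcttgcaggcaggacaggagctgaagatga
Ccl2-Ccl7 shared region, chr11:82041632-82041782: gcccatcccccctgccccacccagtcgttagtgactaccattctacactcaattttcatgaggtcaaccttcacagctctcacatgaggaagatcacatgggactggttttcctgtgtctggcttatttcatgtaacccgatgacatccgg
Ccl5 upstream region, chr11:83534745-83534895: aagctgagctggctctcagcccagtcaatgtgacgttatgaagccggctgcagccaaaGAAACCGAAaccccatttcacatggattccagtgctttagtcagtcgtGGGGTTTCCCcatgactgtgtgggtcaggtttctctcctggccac
Ccl9 upstream region, chr11:83580939-83581089: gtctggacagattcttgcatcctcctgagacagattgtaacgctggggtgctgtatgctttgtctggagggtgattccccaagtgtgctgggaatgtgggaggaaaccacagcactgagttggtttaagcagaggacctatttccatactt
Cxcl2 upstream region, chr5:90900831-90900981: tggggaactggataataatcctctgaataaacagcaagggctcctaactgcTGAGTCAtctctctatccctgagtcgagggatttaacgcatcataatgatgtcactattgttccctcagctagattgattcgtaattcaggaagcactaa
Ccl24 downstream region, chr5:135568810-135568960: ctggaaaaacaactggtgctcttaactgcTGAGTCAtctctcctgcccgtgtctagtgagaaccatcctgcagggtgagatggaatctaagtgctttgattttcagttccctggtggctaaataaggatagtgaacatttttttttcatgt
Cx3cr1 intronic region, chr9:120058858-120059008: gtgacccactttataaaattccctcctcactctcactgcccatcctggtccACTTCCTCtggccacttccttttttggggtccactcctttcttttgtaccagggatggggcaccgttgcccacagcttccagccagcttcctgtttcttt
Ccr3 downstream region, chr9:124037822-124037972: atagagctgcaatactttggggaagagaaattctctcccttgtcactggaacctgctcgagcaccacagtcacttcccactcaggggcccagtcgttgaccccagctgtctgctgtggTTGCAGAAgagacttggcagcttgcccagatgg

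In these windows the Ccl5 region held both an NF-kB match and an ISRE core match, the Cxcl2 and Ccl24 regions each held an AP-1 match, the Cx3cr1 region held a PU.1 match on the minus strand, and the gained Ccl2-Ccl7 region and the Ccr3 region each held a C/EBP match. No searched motif was found in the printed windows of the shared Ccl2-Ccl7 region and the Ccl9 region. Within 100 bp of the summit, an NF-kB match was present in 10 of the 120 regions (8.33%) against 4.85% of all 71243 regions. AP-1 matches were present in 22 regions (18.3% against 13.5%), ISRE core matches in 12 (10% against 8.97%), PU.1 matches in 18 (15% against 11.0%) and C/EBP matches in 16 (13.3% against 12.3%). Within 50 bp of the summit the NF-kB share was 2.5% against 2.39% and the ISRE core share 3.33% against 3.80%. RefSeq promoter sequences (GRCm38, around each start) were given for 25 of the 35 genes. An NF-kB match was found in the promoters of 8 of the 25, namely Cxcl1, Cxcl2, Cxcl3, Cxcl10, Ccl9, Ccr1, Ccr3 and Ccrl2 (32%), against 9.55% of the 27025 genes with an entry. ISRE core matches lay in the promoters of 5 of the 25, namely Cxcl9, Cxcl10, Cxcl14, Ccl3 and Ccr2 (20% against 9.76%). AP-1 matches lay in 3 of the 25 (12% against 5.95%), PU.1 matches in 1 (4% against 3.69%) and C/EBP matches in 2 (8% against 12.2%). These counts describe letters in the sequence and not binding.

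Most regions of the chemokine genes were called in both genotypes. Of the 120 regions, 79 were called in all 4 lists, 6 were gained (5%, called in both cKO lists and neither WT list), 8 were lost (6.67%, called in both WT lists and neither cKO list) and 27 had another pattern. The background over the 53779 regions near any analysed gene was 3.32% gained and 7.22% lost. At least 1 gained region was present at 8 of the 34 genes with a region (23.5%), against 11.1% of all genes with a region, and at least 1 lost region at 7 of them (20.6%) against 21.8%. The 8 genes with a gained region shared 6 regions between them. The gained regions had percentiles from 4.35 to 72.0 and the lost ones from 3.56 to 38.1, so nearly all of them ranked in the lower part of their lists. The count of lost regions was 18 without WT1 and 18 without cKO2, the list with the fewer peaks of the WT pair and that with the more of the cKO pair, and 8 or 9 without either of the others. A site just under the caller's limit of area 200 is not listed, so an uncalled region is not a closed one.

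Among the 79 shared regions, more ranked lower in cKO than higher. The measure was the percentile of a region's peak area among all peaks of its list, where 100 is the strongest peak. Percentiles were compared as log2 odds with limma over all 44820 regions called in every list, and regions with a Benjamini-Hochberg adjusted p below 0.05 were taken as changed. By this fit 4 of the 79 regions ranked higher in cKO (5.06%) and 15 ranked lower (19.0%), against 6.66% higher and 13.2% lower over all regions fitted. The median difference was −0.42 log2 odds for the 79 regions and −0.14 for all regions. The cKO mean percentile was above the WT mean in 24 of the 79. The share over all regions was not counted, here or for the like counts by cluster below. With a negative median over all regions, these counts alone do not set the chemokine genes apart. Percentiles fall as a list grows shorter, so the areas were also quantile-normalized over the shared regions, which moved the median of all regions to 0.00 (0.00498). On that scale 14 of the 79 rose (17.7%) and 22 fell (27.8%), against 19.1% and 19.5% over all regions. All 4 of the higher regions and 13 of the 15 lower regions passed on both scales, with the exceptions named below. Of the 15 lower regions, 4 were assigned to Cx3cr1 only through its long GENCODE body, which crosses neighbouring genes. When uncalled regions were entered at the lowest percentile and all 71243 regions were fitted, limma called 0 regions, with 12 of the 120 higher and 28 lower at an unadjusted p below 0.05. The lowest adjusted p for a chemokine region was then 0.0937. With 1 library left out, the fit covered every region called in all remaining lists. Its counts varied with the library left out, as the closing section gives, and need not concern the same 79 regions.

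Summed over each gene, the Ccl2 to Ccl12 ligand genes were higher in cKO and most chromosome 9 receptor genes lower. The value was the area share, the summed area of all peaks in a gene's window per 1000000 of the total peak area of the list, compared as log2(area share + 1) with limma over 15998 genes. Of the 33 genes that could be fitted, 6 had a higher area share in cKO (18.2%, against 16.1% of all genes fitted) and 9 a lower one (27.3%, against 16.4%). Their median difference was −0.11 and that of all genes was 0.02 (0.0162). The genes that rose were Ccl2, Ccl7, Ccl11, Ccl12, Cxcl11 and Cxcr2, and those that fell were Ccl5, Ccl6, Ccl9, Ccl24, Ccrl2, Cx3cr1, Ccr1, Ccr3 and Cxcr4. The area share moves with the length called as well as with peak height, and covered lengths are therefore given beside it. Without cKO2, 14 of the 33 genes were lower. In a population of cells, fewer cells with an open site and a site that is less open in each cell cannot be told apart.

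**Figure D1:**
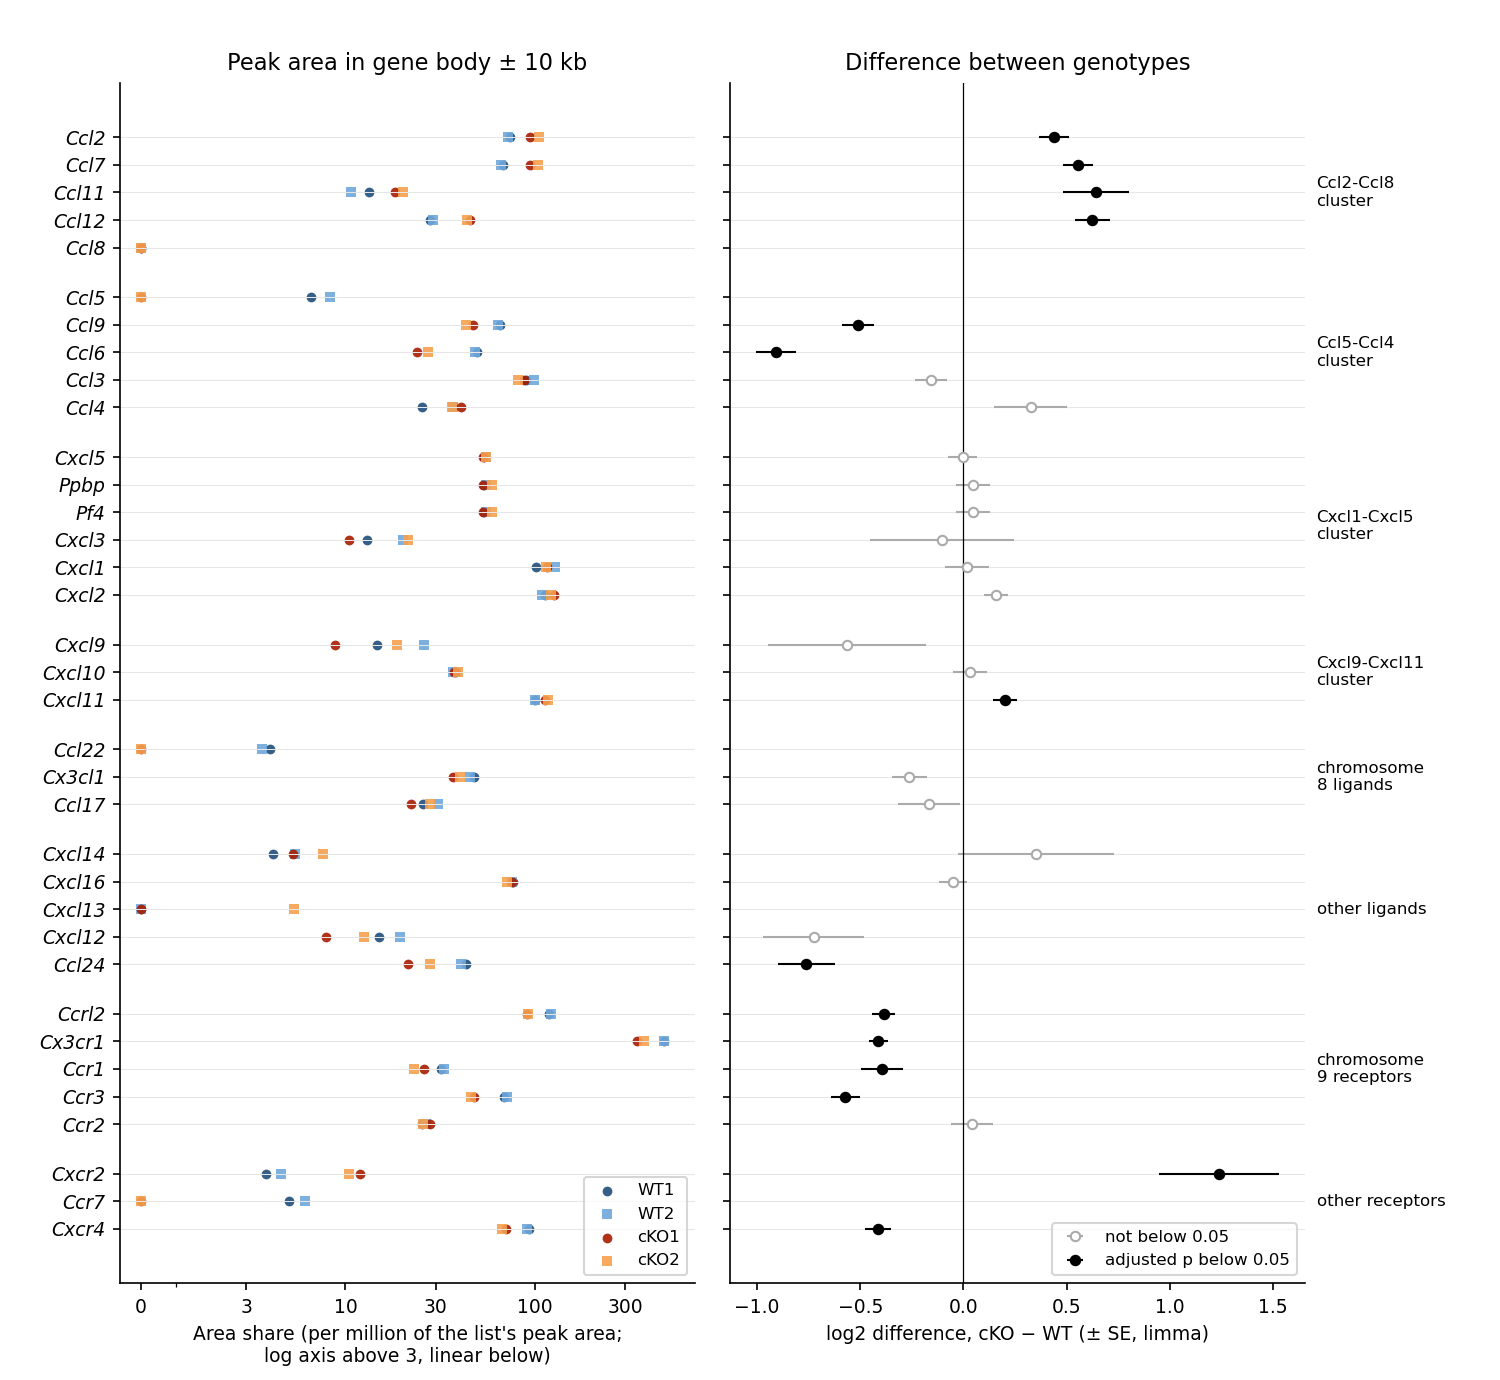
Area share of the 35 genes in each library (left; points and squares are the 4 libraries, horizontal axis per 1000000 of the list's total peak area, logarithmic above 3) and the log2 difference cKO minus WT with its standard error from limma (right; filled where the adjusted p was below 0.05). Genes with a library at 0 have no point on the right. The Ccl2 to Ccl12 genes lie to the right of 0, and Ccl9, Ccl6, Ccl24, Cxcr4 and 4 of the 5 chromosome 9 receptors lie to the left.

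The first CC ligand cluster on chromosome 11 encodes the monocyte attractants Ccl2, Ccl7, Ccl12 and Ccl8 and the eosinophil attractant Ccl11 (eotaxin), and accessibility was higher in cKO at 4 of its 5 genes. The area share of Ccl2 (chr11:82035571-82037453) was 74.2 in WT1, 72.3 in WT2, 94.2 in cKO1 and 105.4 in cKO2, a log2 difference of 0.44 (SE 0.07, limma adjusted p = 0.00876). For Ccl7 (chr11:82045712-82047525) the values were 67.6, 65.8, 93.6 and 103.8 in the same order, a difference of 0.56 (SE 0.07, limma adjusted p = 0.00443). Both cKO libraries lay above both WT libraries for each gene, and the windows of the pair share most of their regions. Covered length rose from a mean of 2164 to 3710 bp at Ccl2 and from 1968 to 3904 bp at Ccl7. Ccl12 (chr11:82101845-82103400) went from 27.8 and 29.1 in WT to 45.2 and 43.6 in cKO (0.63, SE 0.08, limma adjusted p = 0.00477), with mean covered lengths of 965 and 1322 bp. Ccl11 (chr11:82057823-82062955) had area shares of 13.3 and 10.7 in WT and 18.3 and 20.2 in cKO (0.64, SE 0.16, limma adjusted p = 0.0270). The call at Ccl11 was lost without WT2, with a difference of 0.50 and an adjusted p of 0.0893, and those at Ccl2, Ccl7 and Ccl12 held without any 1 library. On covered length alone Ccl12 and Ccl11 no longer passed (adjusted p 0.111 and 0.0535). Within 50 kb on either side in place of 10 kb, the Ccl12 difference was 0.05 and no longer passed.

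Within this cluster the strongest promoter did not differ by the test, and regions from Ccl2 toward Ccl7, with the Ccl7 promoter, ranked higher in cKO. The Ccl2 promoter (chr11:82035007-82035927) had percentiles of 91.4 and 92.3 in WT and 90.1 and 91.2 in cKO and did not pass (limma adjusted p = 0.554). A region between Ccl2 and Ccl7 (chr11:82037489-82039345), within an intron of the overlapping gene model Gm17268, was absent from both WT lists and had percentiles of 18.3 in cKO1 and 72.0 in cKO2, where it covered 873 and 1857 bp. The next region (chr11:82041547-82042299, intergenic) had percentiles of 48.9 and 57.8 in WT and 71.4 and 76.6 in cKO (1.32 log2 odds, SE 0.34, limma adjusted p = 0.00114). The Ccl7 promoter (chr11:82045344-82045870) followed the same order, with 42.5 and 52.7 in WT and 62.2 and 68.7 in cKO (1.06, SE 0.39, limma adjusted p = 0.0346). In both of these regions the cKO values lay above the WT values. The first of the calls was lost without WT1 or cKO2 (highest adjusted p 0.0984) and the second without any 1 of the 4 libraries (0.0573 to 0.378). Of the 9 regions of the cluster, 7 were called in all lists, 5 of these passed as higher after quantile normalization and none as lower. A region 1537 bp upstream of Ccl12, singled out after its values were seen, was not called in WT1 and had percentiles of 9.36 in WT2, 50.8 in cKO1 and 53.6 in cKO2. The Ccl12 promoter itself had 80.9 and 82.6 in WT and 83.7 and 87.3 in cKO, and passed only after quantile normalization (limma adjusted p = 0.267, and 0.0150 after it).

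**Figure D2:**
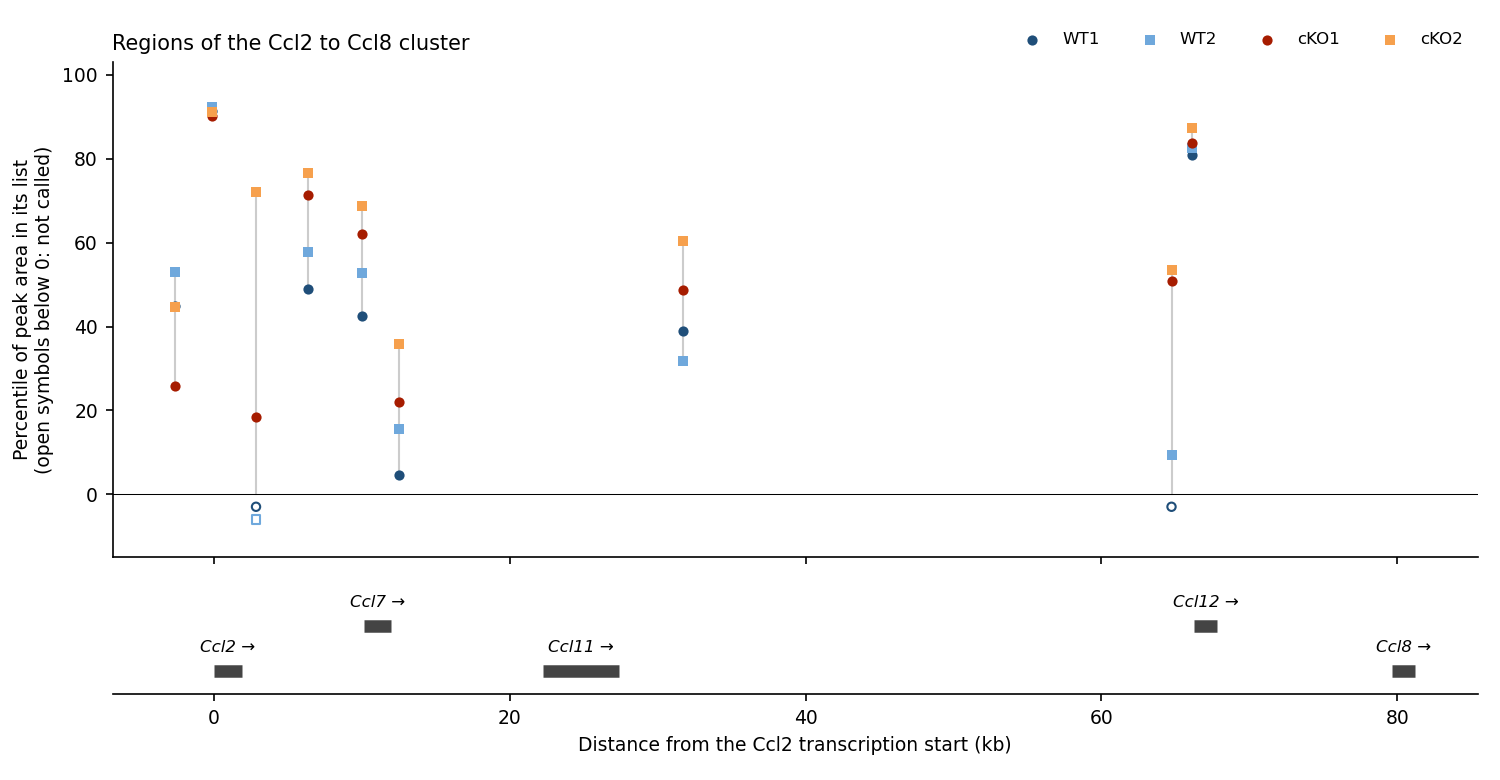
Percentile of peak area in each library (vertical axis) for the 9 regions of the cluster against the distance of the region's centre from the Ccl2 start in kb (horizontal axis), with gene bodies and their direction below. Open symbols under 0 mark libraries in which the region was not called. The Ccl2 promoter at 0 has all 4 libraries between 90.1 and 92.3, whereas the cKO libraries lie above the WT libraries at the regions toward Ccl7.

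The second CC cluster on chromosome 11 holds Ccl5 (RANTES, an attractant of T cells and monocytes), Ccl9 and Ccl6, which are ligands of CCR1, and the macrophage inflammatory proteins Ccl3 and Ccl4. The first 3 of these 5 genes had lower area shares in cKO, and Ccl3 and Ccl4 did not pass in either direction. Ccl6 (chr11:83587882-83593087) had area shares of 49.6 in WT1, 48.0 in WT2, 23.9 in cKO1 and 27.2 in cKO2, and fell by 0.91 on the log2 scale (SE 0.10, limma adjusted p = 0.00280). Ccl9 (chr11:83572919-83578636) had 65.5 and 63.8 in WT and 47.1 and 43.0 in cKO, and fell by 0.51 (SE 0.08, limma adjusted p = 0.00658). Neither gene's groups overlapped, and both calls held without any 1 library. Mean covered length was 1899 bp in WT and 1112 bp in cKO at Ccl6, and 2203 and 1409 bp at Ccl9. On covered length alone or within 2 kb of the gene, the Ccl6 difference kept its sign but no longer passed (adjusted p 0.0601 and 0.0959). Ccl5 (chr11:83525778-83530518) had area shares of 6.57 and 8.27 in WT and was listed at 0 in both cKO libraries (limma adjusted p = 0.0369). That call rests on peaks of low rank, and it was lost on covered length and with a pseudocount of 0.1. Ccl3 (chr11:83647844-83649355) had 89.9 and 99.2 in WT and 87.8 and 81.5 in cKO, and Ccl4 (chr11:83662584-83664683) had 25.3 and 36.9 in WT and 40.8 and 36.3 in cKO (limma adjusted p = 0.154 and 0.197). The Ccl4 libraries overlapped between genotypes, and without WT2 its difference was 0.59 with an adjusted p of 0.00597. Within 50 kb the Ccl4 difference was −0.22 (limma adjusted p = 0.0192), opposite in sign to that within 10 kb.

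The area of Ccl5 came from weak intergenic regions upstream of it. A region 4282 bp from the start (chr11:83534649-83534951) had percentiles of 24.6 in WT1 and 11.7 in WT2 and was not called in cKO. A second region 2890 bp from the start (chr11:83533298-83533518) was called in WT2 alone, with a percentile of 15.4. The printed window of the first holds the NF-kB and ISRE core matches. Another lost region (chr11:83580816-83581176) lay 2360 bp from the Ccl9 start, with percentiles of 18.3 and 10.3 in WT. At the first exon of Ccl9 (chr11:83578224-83578737, overlapping its 5′ UTR) the percentiles were 65.6 and 70.9 in WT and 45.1 and 52.7 in cKO (−1.17 log2 odds, SE 0.37, limma adjusted p = 0.0118). The Ccl6 promoter had 37.4 and 49.9 in WT and 17.2 and 25.9 in cKO, a gap that passed only after quantile normalization (limma adjusted p = 0.136, and 0.0118 after it). An intergenic region assigned to Ccl3 (chr11:83639903-83640750) had 79.6 and 85.4 in WT and 69.3 and 74.9 in cKO (−0.88, SE 0.27, limma adjusted p = 0.00974). WT lay above cKO without overlap at these regions of Ccl9, Ccl6 and Ccl3. The call at Ccl9 was lost without WT1, WT2 or cKO1 (highest adjusted p 0.262) and that near Ccl3 without WT2 or cKO1 (highest 0.386). The Ccl3 promoter, the strongest of the cluster, had 95.4, 96.3, 94.1 and 94.8 in the 4 libraries and did not pass (limma adjusted p = 0.149). In the opposite direction, a region 3335 bp from the Ccl4 start (chr11:83665735-83666102) was gained, with percentiles of 17.9 in cKO1 and 39.8 in cKO2. Across the 11 shared regions of the cluster the cKO mean was higher in 1, the Ccl4 promoter (chr11:83662268-83662819). That promoter had 47.3 and 61.7 in WT and 63.7 and 65.3 in cKO. It passed as higher only after quantile normalization (limma adjusted p = 0.269, and 0.0184 after it), where 4 regions of the cluster passed as lower.

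**Figure D3:**
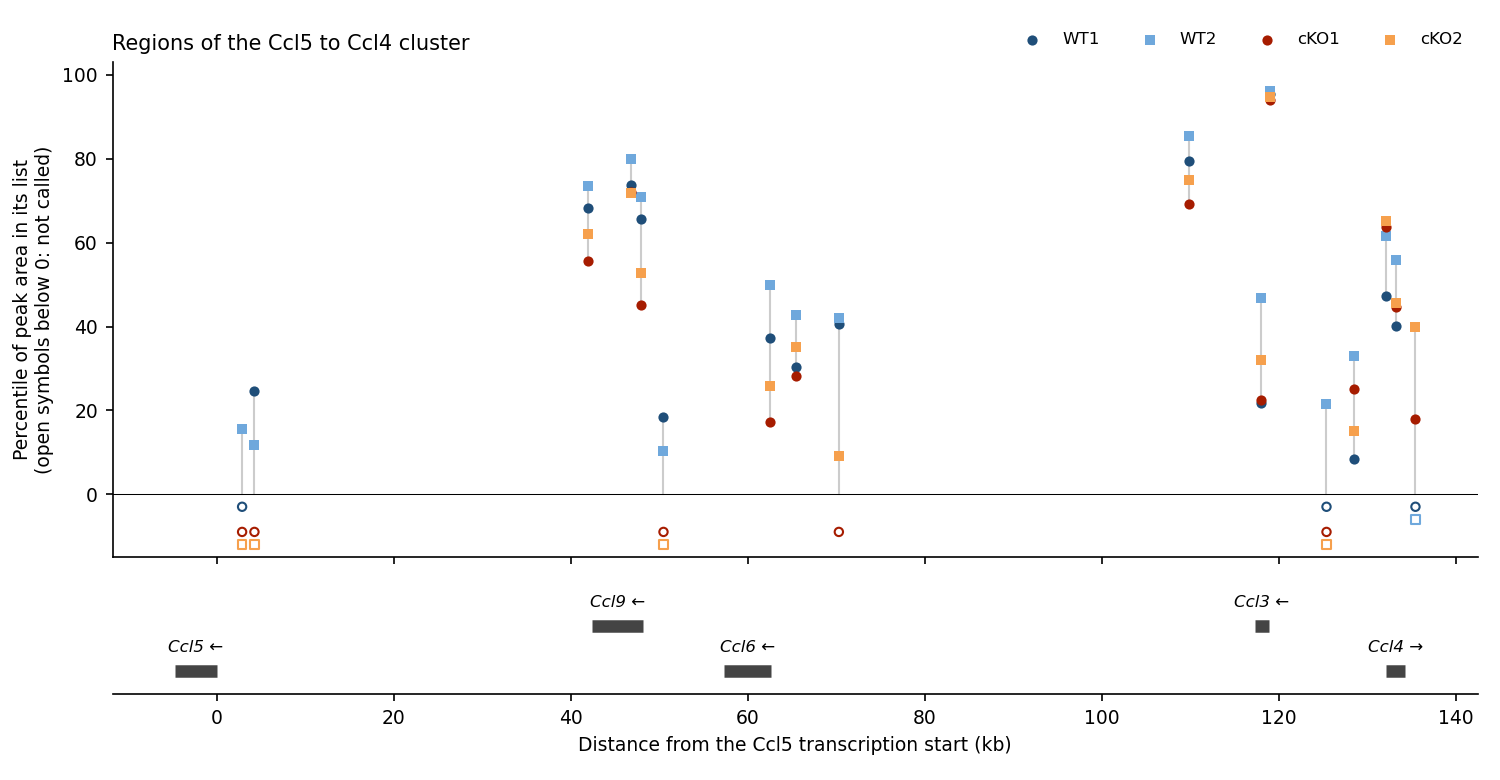
Percentile of peak area in each library (vertical axis) for the 17 regions of the second chromosome 11 cluster against distance from the Ccl5 start in kb (horizontal axis), with gene bodies below. Open symbols under 0 mark libraries without a call. The regions near Ccl5 and between Ccl9 and Ccl6 show cKO below WT, and the region beside Ccl4 at the right end is called in cKO alone.

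The ELR-type CXC ligands on chromosome 5 attract neutrophils through CXCR2 (Cxcl1, Cxcl2, Cxcl3, Cxcl5 and Ppbp), and Pf4, a platelet chemokine, lies among them. None of these 6 genes passed the gene fit with limma in either direction, and at an unadjusted p below 0.05 there was 1, Cxcl2. The area share of Cxcl2 (chr5:90903871-90905938) was 112.3 in WT1, 108.7 in WT2, 125.9 in cKO1 and 120.9 in cKO2, a difference of 0.16 (SE 0.06, limma adjusted p = 0.0784). The cKO libraries lay above the WT libraries by less than the fit required. Cxcl1 (chr5:90891241-90893115) had 101.5 and 127.1 in WT and 116.2 and 113.6 in cKO, with the WT libraries on either side of both cKO values. Cxcl5, Ppbp and Pf4 shared the same main region and had area shares between 53.0 and 59.2 in all libraries. Cxcl3 had 13.0 and 20.1 in WT and 10.4 and 21.5 in cKO, so that libraries of 1 genotype differed more than the genotypes did.

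At the level of regions, 8 of the 14 regions of this cluster were called in all lists and the cKO mean percentile was higher in 7 of them. A region 9418 bp from the Cxcl1 start (chr5:90881556-90882090) had 78.1 and 81.7 in WT and 85.2 and 87.9 in cKO (0.70 log2 odds, SE 0.25, limma adjusted p = 0.0320). Both cKO values were above both WT values, and the call was lost without any 1 of the 4 libraries (adjusted p 0.0707 to 0.355). The gained region 3010 bp upstream of the Cxcl2 start (chr5:90900646-90901075), whose AP-1 match is shown above, had percentiles of 4.35 in cKO1 and 27.6 in cKO2. The Cxcl2 promoter had 83.4 and 87.0 in WT and 87.0 and 88.2 in cKO (limma adjusted p = 0.458). The Pf4 promoter, among the strongest regions of all the genes, had 94.2, 95.9, 93.8 and 95.0 in the 4 libraries (limma adjusted p = 0.593). No promoter peak was called at Cxcl1 in any list, although its promoter sequence holds an NF-kB match. One region 3217 bp from the Cxcl1 start, singled out after its values were seen, went the other way, with 47.5 and 53.2 in WT, 4.45 in cKO1 and no call in cKO2.

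**Figure D4:**
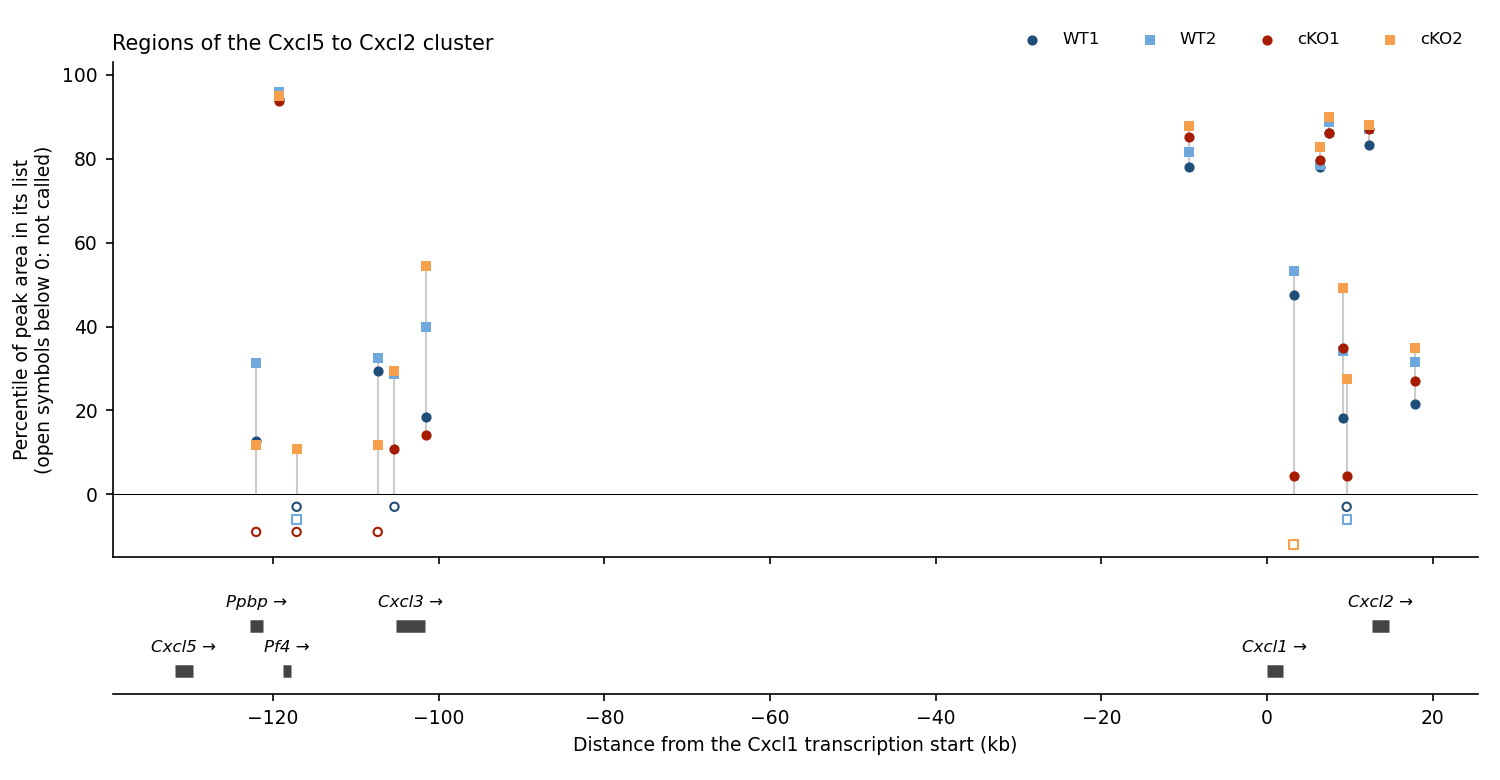
Percentile of peak area in each library (vertical axis) for the 14 regions of the ELR-type CXC cluster against distance from the Cxcl1 start in kb (horizontal axis), with gene bodies below. Open symbols under 0 mark libraries without a call. All 4 libraries lie together at the Pf4 promoter, between 93.8 and 95.9, and the region called in cKO alone lies between Cxcl1 and Cxcl2.

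The interferon-inducible ligands Cxcl9, Cxcl10 and Cxcl11, which act on CXCR3 of T cells, lie further along chromosome 5. Cxcl10 (chr5:92346638-92348889) had area shares of 38.1 and 37.0 in WT and 37.4 and 39.4 in cKO, a difference of 0.03 (SE 0.08, limma adjusted p = 0.778). Its promoter region, with percentiles of 67.2 and 70.5 in WT and 68.7 and 72.0 in cKO, did not pass either (limma adjusted p = 0.868). The promoter sequence of Cxcl10 held both NF-kB and ISRE core matches. Cxcl9 (chr5:92321347-92328079) had 14.6 and 26.0 in WT and 8.81 and 18.7 in cKO, with overlapping genotypes and no promoter peak in any list. Cxcl11 (chr5:92359544-92365485), which GENCODE types as a polymorphic pseudogene, had 99.97 and 100.3 in WT and 113.1 and 117.7 in cKO, a difference of 0.20 (SE 0.06, limma adjusted p = 0.0395). The Cxcl11 call was lost without WT1, WT2 or cKO2 (highest adjusted p 0.138) and with lists of equal length (0.0568). A gained region 5081 bp from the Cxcl11 start (chr5:92370430-92370702, intronic) had percentiles of 12.2 in cKO1 and 22.9 in cKO2.

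Most receptor genes on chromosome 9 were less accessible in cKO. The 5 genes were Cx3cr1 (the fractalkine receptor of monocytes and macrophages), Ccr1 and Ccr3 (receptors of CC ligands such as Ccl3, Ccl5 and Ccl11), Ccr2 (the receptor of Ccl2) and Ccrl2 (an atypical receptor that binds chemerin). The area share was lower in cKO at 4 of the 5, with Ccr2 the exception. Of their 42 regions 31 were called in all lists, 10 of these ranked lower in cKO and none higher, and after quantile normalization 15 were lower and 1 higher. The cKO mean percentile was above the WT mean in 2 of the 31, and the median difference was −8.99 percentile points. Neither value has its counterpart over all regions beside it. Of the 42 regions, 25 lay in the Cx3cr1 window, which its GENCODE body stretches across neighbouring genes. Of the 10 lower regions, 4 lay in that window but outside the shorter RefSeq window given below. These counts and the median therefore rest in part on regions of neighbouring genes.

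Cx3cr1 had the highest area share of the 35 genes, 477.0 in WT1, 481.8 in WT2, 345.6 in cKO1 and 375.4 in cKO2, and fell by 0.41 on the log2 scale (SE 0.05, limma adjusted p = 0.00328). This window is long because a GENCODE transcript stretches the gene body to 168264 bp (chr9:119901616-120069879) across neighbouring genes. With the RefSeq gene body (chr9:120048683-120068296) and the same 10 kb on each side, the area shares were 152.7 and 143.2 in WT and 109.8 and 123.9 in cKO. That difference was −0.34 (SE 0.08, limma adjusted p = 0.0199), with both cKO libraries again below both WT libraries. The RefSeq window held 6 regions, all called in every list, of which 3 ranked lower. The first of these (chr9:120058482-120059204), intronic and 9440 bp from the start, had percentiles of 92.7 and 92.3 in WT and 85.5 and 87.7 in cKO (−0.94 log2 odds, SE 0.23, limma adjusted p = 0.000759). Its PU.1 match is printed above. A region beyond the 3′ end of the RefSeq gene (chr9:120042933-120043696) had 86.9 and 86.5 in WT and 72.6 and 79.2 in cKO (−1.04, SE 0.26, limma adjusted p = 0.000727). Both calls were lost without cKO1 (adjusted p 0.0652 and 0.121). The third (chr9:120054641-120055483) had 80.2 and 82.2 in WT, 49.9 in cKO1 and 72.9 in cKO2 (limma adjusted p = 4.26e-05), and it did not pass after quantile normalization (0.0975) or without cKO1 (0.251). The Cx3cr1 promoter had 74.99 and 84.5 in WT and 66.5 and 76.8 in cKO, with overlapping genotypes (limma adjusted p = 0.0753).

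The longer window added 4 lower regions and 3 lost ones. The strongest of them in WT was the promoter of the neighbouring gene Wdr48 (chr9:119894537-119895701), with percentiles of 95.9 and 96.2 in WT and 87.6 and 87.8 in cKO (−1.79 log2 odds, SE 0.23, limma adjusted p = 3.64e-13). A region between Xirp1 and Cx3cr1 (chr9:120037235-120038091) had 83.5 and 86.9 in WT and 66.1 and 70.9 in cKO (−1.41, SE 0.27, limma adjusted p = 5.61e-06). These 2 calls held without any 1 library. Near Ttc21a, chr9:119943270-119943798 had 52.6 and 59.2 in WT and 9.37 and 38.2 in cKO (limma adjusted p = 0.00265), a call lost without WT1, WT2 or cKO1 (highest 0.309). The other, chr9:119948729-119949268, had 61.7 and 71.7 in WT and 26.1 and 45.2 in cKO (limma adjusted p = 0.000235, with 0.117 without WT2 and 0.0620 without cKO1). The lost regions were weak, with WT percentiles of 19.5 and 38.1 at chr9:119899498-119899784, 3.96 and 5.41 at chr9:119963367-119963558, and 3.71 and 12.5 at chr9:120027905-120028112.

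**Figure D5:**
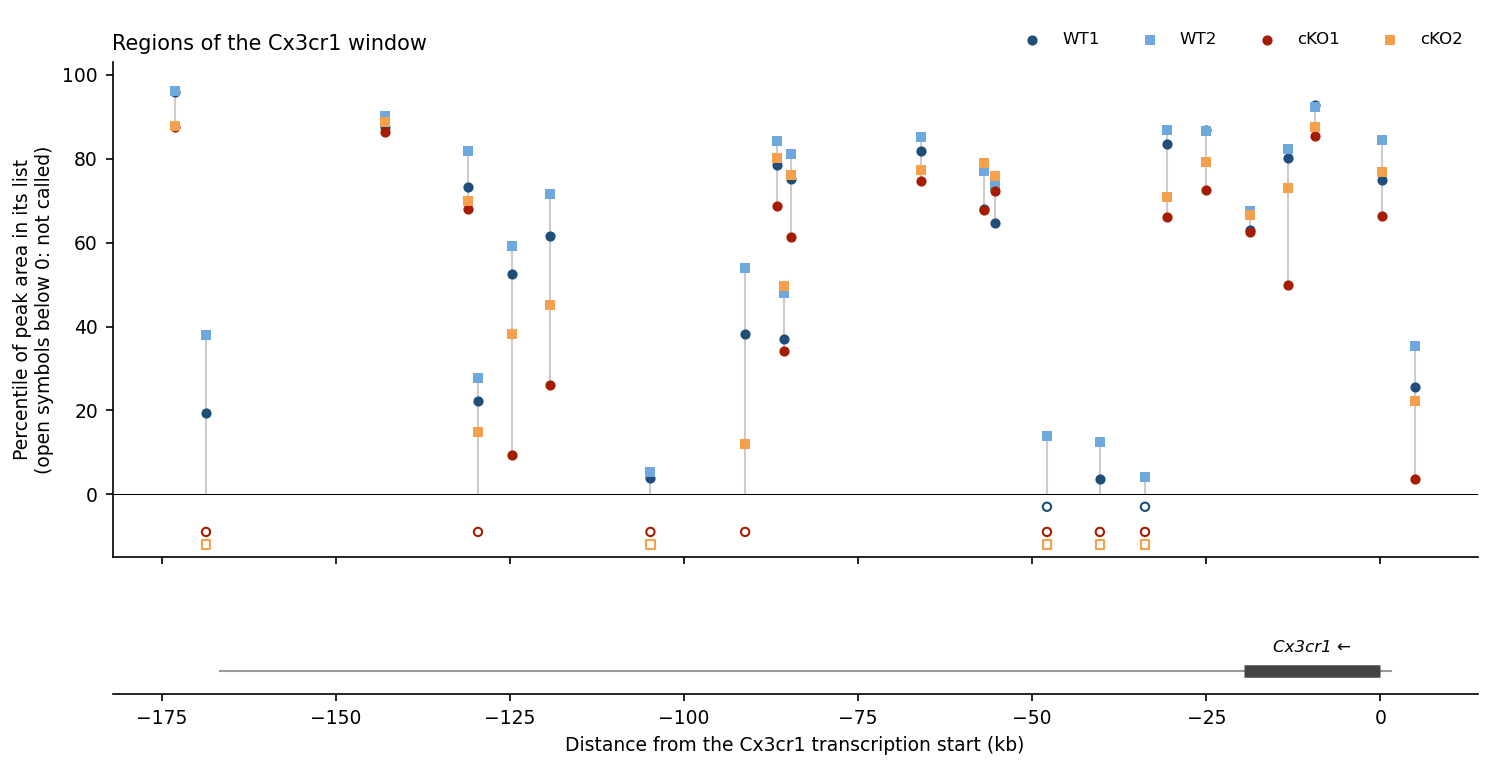
Percentile of peak area in each library (vertical axis) for the 25 regions of the Cx3cr1 window against distance from the RefSeq Cx3cr1 start in kb (horizontal axis). The thick bar is the RefSeq gene body and the thin line the longer GENCODE body, and open symbols under 0 mark libraries without a call. At −9 kb and farther left most cKO points lie below the WT points, with the promoter at 0 showing overlapping libraries.

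The Ccrl2 promoter ranked lower in cKO. The region over the Ccrl2 start (chr9:111056806-111058272) had percentiles of 74.5 in WT1, 82.5 in WT2, 44.0 in cKO1 and 46.7 in cKO2 (−2.16 log2 odds, SE 0.34, limma adjusted p = 1.36e-08). It was a single peak in 3 lists and 2 peaks in cKO2, and the call held without any 1 library. The covered length there was 1350 and 1465 bp in WT and 597 and 1287 bp in cKO. The area share of Ccrl2 (chr9:111054486-111057519) was 117.8 in WT1, 120.9 in WT2, 90.8 in cKO1 and 91.4 in cKO2 (−0.39, SE 0.06, limma adjusted p = 0.00575). Ccr3 (chr9:124021972-124031689) went from 68.6 and 71.5 in WT to 47.7 and 45.8 in cKO, and fell by 0.57 on the log2 scale (SE 0.07, limma adjusted p = 0.00385). Mean covered length was 2625 bp in WT and 1703 bp in cKO at Ccr3, and 3609 and 2613 bp at Ccrl2. Both area share calls held without any 1 library, and on covered length alone that of Ccrl2 was lost (adjusted p 0.133).

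The Ccr3 decrease lay at flanking regions and not at a promoter, which was called in WT2 alone with a percentile of 1.34. A region 1872 bp upstream of the start (chr9:124019793-124020407) had 50.3 and 59.9 in WT and 23.9 and 28.8 in cKO (−1.79 log2 odds, SE 0.58, limma adjusted p = 0.0136). This call was lost without WT1, WT2 or cKO1 (highest adjusted p 0.303). A downstream region (chr9:124037553-124038286), whose C/EBP match is printed above, had 82.4 and 84.5 in WT and 66.6 and 71.8 in cKO (−1.17, SE 0.27, limma adjusted p = 0.000338, and 0.0510 without WT2). Ccr1 (chr9:123962124-123968692) had area shares of 32.0 and 32.9 in WT and 26.0 and 23.0 in cKO (−0.39, SE 0.10, limma adjusted p = 0.0322). The Ccr1 call was lost without WT1, WT2 or cKO2 (highest adjusted p 0.115). Its mean covered lengths were 975 and 863 bp, and it did not pass on covered length (0.889). The Ccr1 promoter (chr9:123968333-123969050) had percentiles of 73.6 and 76.7 in WT and 63.4 and 64.0 in cKO. It passed as lower only after quantile normalization (limma adjusted p = 0.0506, and 0.0111 after it). Ccr2 (chr9:124101950-124113557) had 25.3 and 26.7 in WT and 28.1 and 25.5 in cKO (0.04, SE 0.10, limma adjusted p = 0.782). Its mean covered length was 733 bp in WT and 1194 bp in cKO, and on covered length alone it passed as higher (0.79, limma adjusted p = 0.0266). Within 50 kb the Ccr2 difference was −0.65 (limma adjusted p = 0.00105).

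Among the remaining receptors, Cxcr4 was lower and Cxcr2 higher in cKO. Cxcr4, the receptor of Cxcl12 that retains cells in the bone marrow, had area shares of 92.7 in WT1, 90.2 in WT2, 70.0 in cKO1 and 66.8 in cKO2 (chr1:128588199-128592293; −0.41, SE 0.06, limma adjusted p = 0.00658). Its mean covered length was 3195 bp in WT and 2146 bp in cKO, and on covered length alone it did not pass (0.0532). Its start region (chr1:128590630-128593468) was among the strongest of the WT lists, with percentiles of 99.4 and 99.3, and had 87.8 and 97.8 in cKO without passing (limma adjusted p = 0.335). That region was a single peak in WT1 and cKO2 and was split into 2 peaks in WT2 and cKO1, where the percentile is that of the higher peak. A region 5073 bp upstream (chr1:128597119-128597606), with percentiles of 18.1 and 32.0 in WT, was lost. Ccr7, the lymph node homing receptor, had area shares of 5.03 and 6.09 in WT and was listed at 0 in cKO, from 1 lost region (chr11:99164899-99165298, percentiles 13.3 and 29.9). That difference did not pass (limma adjusted p = 0.0753), and it passed without cKO2 (0.000690).

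Cxcr2, the neutrophil receptor of the ELR-type ligands, had area shares of 3.80 and 4.56 in WT and 12.0 and 10.5 in cKO (chr1:74153989-74161246; 1.24, SE 0.29, limma adjusted p = 0.0231, and 0.0732 without cKO1). The cKO values were above the WT values, and the mean covered length was 466 bp in WT and 748 bp in cKO. One of its 2 regions (chr1:74159680-74159957), in the last exon within the annotated 3′ UTR, was gained, with percentiles of 4.86 in cKO1 and 26.6 in cKO2. The other (chr1:74155387-74155910, intronic) was called in every list, with 1.48 and 17.7 in WT and 29.7 and 18.2 in cKO, and did not pass (limma adjusted p = 0.341). No promoter peak was called in any list. Of 5 neutrophil markers, 1 had a called promoter in WT (S100a8) and 2 in cKO (S100a8 and Ly6g), while S100a9, Elane and Mpo had none in any list. The part of neutrophil lineage cells in the Cxcr2 result was not tested.

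The single ligands outside the clusters behaved differently from each other. Ccl24 (eotaxin-2, made by macrophages) had area shares of 43.4 and 40.5 in WT and 21.3 and 27.8 in cKO (chr5:135569937-135573049; −0.76, SE 0.14, limma adjusted p = 0.0107), and the call held without any 1 library. It did not pass on covered length alone (0.362), with means of 1256 and 970 bp. A region 4276 bp from its start (chr5:135568489-135569057) had percentiles of 64.9 and 69.5 in WT and 33.7 and 51.1 in cKO (−1.49 log2 odds, SE 0.40, limma adjusted p = 0.00228). This call was lost without WT1, WT2 or cKO1 (highest adjusted p 0.189). Within 50 kb the Ccl24 difference was 0.08 and did not pass. The Ccl24 promoter (chr5:135573014-135573413) had percentiles of 63.6 and 67.2 in WT and 52.6 and 56.3 in cKO. It passed as lower only after quantile normalization (limma adjusted p = 0.199, and 0.0393 after it).

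Cxcl16, the transmembrane ligand of CXCR6, had area shares of 76.6 and 75.8 in WT and 75.9 and 71.1 in cKO (chr11:70453983-70459984; −0.05, SE 0.07, limma adjusted p = 0.577), although 2 of its regions moved in opposite directions. A region at the neighbouring Med11 start (chr11:70451761-70452572) ranked higher, with 76.8 and 77.7 in WT and 86.3 and 87.9 in cKO (0.99 log2 odds, SE 0.25, limma adjusted p = 0.00117, and 0.0504 without cKO2). An intergenic region on the other side (chr11:70467687-70468269) ranked lower, with 65.3 and 71.6 in WT and 38.0 and 51.0 in cKO (−1.45, SE 0.39, limma adjusted p = 0.00202, with 0.158 without WT2 and 0.125 without cKO1). Cxcl12 (stromal derived factor, the ligand of CXCR4) had 15.0 and 19.4 in WT and 7.89 and 12.5 in cKO and did not pass (limma adjusted p = 0.0649), though it passed without cKO2 (5.04e-05) and without WT1 (0.0230). Cxcl14 had area shares of 4.16 to 7.58 in the 4 libraries (limma adjusted p = 0.5005). Cxcl13, a B cell attractant, had a peak in cKO2 alone.

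None of the 3 neighbouring ligand genes on chromosome 8 passed the gene fit with limma, and 1 of them (Cx3cl1) had an unadjusted p below 0.05. Ccl22, a ligand of CCR4, had area shares of 3.999 and 3.61 in WT and was listed at 0 in cKO. Its promoter region (chr8:94745485-94745691) was weak, with percentiles of 3.56 and 8.06, and was lost. The Ccl22 difference did not pass (limma adjusted p = 0.172), though it passed without cKO2 (0.0184). Cx3cl1 (fractalkine, the ligand of CX3CR1) had 47.7 and 45.3 in WT and 37.0 and 40.2 in cKO (−0.26, SE 0.08, limma adjusted p = 0.0576, and 0.0264 without cKO2). An intronic region of Cx3cl1 (chr8:94778349-94779555) had 85.1 and 87.6 in WT, 56.4 in cKO1 and 77.9 in cKO2 (limma adjusted p = 2.54e-07). In cKO1 it was split into 2 peaks, and it did not pass after quantile normalization (0.111) or without cKO1 (0.0830). Ccl17, another ligand of CCR4, had 25.6 and 30.9 in WT and 22.2 and 28.0 in cKO, with overlapping genotypes (limma adjusted p = 0.420). After quantile normalization 2 regions of these 3 genes passed as higher and 0 as lower. Intronic chr8:94776378-94776760 of Cx3cl1 had percentiles of 31.5 and 34.7 in WT and 41.4 and 53.3 in cKO (limma adjusted p = 0.316, and 0.0132 after it). Intergenic chr8:94802341-94802710 near Ccl17 had 38.7 and 45.2 in WT and 55.4 and 62.2 in cKO (limma adjusted p = 0.103, and 0.00198 after it).

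A peak at the start was called in all 4 lists for 17 of the 35 genes and in 1 to 3 lists for Cxcl3, Ccl22 and Ccr3. The other 15 had no such peak in any list, so their starts carry no comparison between genotypes. By position, 23 of the 120 regions were at promoters of any gene, 10 in exons, 36 in introns and 51 between genes. The shares over all genes and regions were not counted, so these numbers only describe the listed genes.

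The other genes of the chemokine system, taken as a complete list of 27 ligands and receptors, gave 23 that could be fitted. Of these, 3 rose (13.0%) and 8 fell (34.8%) in cKO by area share, against the 16.1% and 16.4% of all genes given above. Those that rose were Cxcr1, which neighbours Cxcr2, the atypical receptor Ackr3 and the mucosal ligand Cxcl17. Those that fell were the receptors Ccr6, Cxcr5, Ackr2, Ccr9, Cxcr6, Xcr1 and Ccr1l1 and the ligand Ccl26, whose window overlaps that of Ccl24. Of these receptors, 6 lie on chromosome 9, and 4 of the 6 (Ccr9, Cxcr6, Xcr1 and Ccr1l1) are near neighbours of Ccr1 in 1 array. Xcr1 went from 140.8 and 142.8 in WT to 104.3 and 106.3 in cKO (−0.43, SE 0.05, limma adjusted p = 0.00413), and Ccr9 from 103.3 and 97.7 to 59.4 and 51.8 (−0.85, SE 0.08, limma adjusted p = 0.00240). In both of these receptors the genotypes did not overlap. Cxcr5, at a distance on the same chromosome, went from 82.4 and 82.7 to 46.3 and 44.6 (−0.85, SE 0.07, limma adjusted p = 0.00149). The GENCODE bodies of Ccr9 and Cxcr5 are long, at 105892 and 50091 bp, and were not refitted with shorter ones. Their windows, with 1 and 3 lost regions, may therefore include regions of neighbouring genes. Of the 77 regions of these 27 genes, 49 were called in all lists, 2 were gained (2.60%, against 3.32% over all regions near genes) and 10 were lost (13.0%, against 7.22%). Of the 77, 69 lay outside the windows of the 35 genes, so the lists share regions. The window of Ccr1l1, for example, holds the Ccr1 promoter region.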

How the data were processed

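ATAC-seq was performed by the authors on nuclei of WT and cKO BMDMs, 2 libraries each, with paired reads aligned to mm10 by Bowtie2 2.5.1. Peaks were called per library with Genrich at default settings, according to the study's methods. Removal of duplicates and shifting of read ends are not given in the sources used here. The signal column used was the authors' peak area, the area under the significance curve, deposited per peak without normalization between libraries. The deposited score, −log10 p-value and q-value columns were not used. Read depth is unknown, so no interval for counting error could be given.

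Peaks overlapping by at least 1 bp were merged into regions and assigned to GENCODE M21 gene bodies ± 10 kb. The set analysed was protein-coding genes plus the listed genes. Regions were classed by their centre as promoter (from 1 kb before a transcription start to 100 bp after it), exon, intron or intergenic. The region value was the percentile of the area within its list (for several peaks, the highest), and the gene value was the area share with a pseudocount of 1, for genes with a peak in at least 2 lists. Log2 fold changes of the gene value are on the log2(value + 1) scale and understate low genes. Both were fitted with limma 3.58.1 (trend, robust) in R 4.3.3 with Benjamini-Hochberg adjustment over all regions or genes at 0.05. In the region fit limma gave every region the spread expected at its mean, so p-values there lean on the spread of other regions. An exact permutation test on 2 against 2 libraries cannot go below p = 0.333 and was not used. P-values rest only on the spread between these libraries, and in the region fit on that shared over regions and not a region's own. The labels do not name separate animals for these libraries. Scripts used Python 3.11.15 (pandas 2.3.3, numpy 2.4.6) and were tested on simulated data, and merging was checked with bedtools 2.31.1. Alternatives are described in the closing section.

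All 35 listed genes are named, with each gained, lost or called region and the region at most starts. Percentiles at the starts of Cx3cl1, Cxcl14 and Cxcl3 are not given. A single gained region is counted but not reported here. The genes and lists were chosen with earlier results of these data known. Replicate numbers 1 and 2 occur in both genotypes but mark no shared animal, litter or batch in the labels.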

Additional observations from a re-analysis of the deposited data

How the results depend on the processing

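The number of gained regions was 2 when peaks under their list's median area were dropped and 3 within 2 kb of the genes, and it was 6 to 9 with 1 library left out. The number of lost regions was 4 within 2 kb, 22 within 50 kb and 8 to 18 with 1 library left out. Genes with a gained region numbered 2 without those weaker peaks, 3 within 2 kb and 14 within 50 kb (8 to 11 with 1 library left out), and those with a lost region 4, 2 and 21 (7 to 16, with 14 without WT1 and 16 without cKO2). Shared regions higher in cKO numbered 14 after quantile normalization, 13 with summed area per 1000000, 13 with percentiles among the shared regions, an alternative chosen after seeing the data, and 0 when all union regions were fitted with uncalled ones at the lowest percentile, where 12 of all 120 regions had an unadjusted p below 0.05 (limma). With 1 library left out they numbered 0 to 2. Shared regions lower in cKO numbered 30 with summed area, 0 in the fit of all union regions (28 of all 120 at an unadjusted p below 0.05) and 6 to 21 with 1 library left out. Over all regions the split was 2983 higher and 5906 lower in the main fit and 8542 higher and 8734 lower after quantile normalization. Genes lower in cKO numbered 3 on covered length, 14 within 50 kb and 7 to 14 with 1 library left out. For the other chemokine genes, whose alternatives were added after seeing the data, 0 were higher on covered length, 1 within 2 kb and 6 within 50 kb, and 3 and 4 were lower on covered length and within 2 kb. For the 0 on covered length the count at an unadjusted p below 0.05 was 2 (limma). Motif matches within 50 bp of the summit were in 3 regions for NF-kB, 4 for the ISRE core, 10 for PU.1 and 9 for C/EBP (2.5%, 3.33%, 8.33% and 7.50%, against 2.39%, 3.80%, 7.77% and 6.06% of all regions), and those for AP-1 in 17 (14.2% against 9.26%).

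The labels give no reason to pair the libraries by replicate number, and with 2 pairs the data cannot settle it: the differences between replicate 1 and 2 correlated at r = 0.187 between genotypes across shared regions. With the replicate block, 28 shared regions were lower, and the other counts of regions and genes stayed within 1.5 times their main values. The block gave calls to Cxcl2 (limma adjusted p = 0.0309), Cxcl9 (0.0298), Cxcl12 (0.0227), Ccr7 (0.0146) and Ccl22 (0.0261), and the Cx3cr1 region at chr9:120054641-120055483 lost its call (0.0645).

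The size of the window changed the sign for several genes, none of which passed in the main fit except Ccl24. Within 50 kb the log2 difference was 0.063 for Cxcl16, −0.22 for Ccl4, −0.066 for Ppbp and Pf4, 0.072 for Cxcl9, 0.076 for Ccl24, 0.0073 for Ccl22 and −0.65 for Ccr2. Within 2 kb it was 0.29 for Cxcl16, −0.0038 for Ppbp, 0.55 for Cxcl3, −2.39 for Cxcl1 and −0.32 for Ccr2. With lists cut to equal length it was −0.081 for Ppbp and Pf4, −0.0062 for Cxcl1, 0.10 for Ccl17 and −0.21 for Ccr2, and on covered length 0.37 for Cxcl3, −0.012 for Cxcl1 and 0.035 for Cx3cl1. With 1 library left out the sign also turned, the differences running from −0.032 to 0.025 for Cxcl5, −0.032 to 0.12 for Ppbp and Pf4, −0.60 to 0.38 for Cxcl3, −0.14 to 0.18 for Cxcl1, −0.0030 to 0.069 for Cxcl10 and −0.025 to 0.11 for Ccr2. The cause of these moves was not tested. Of the values for single genes and regions under all alternatives, 413 kept their direction and their side of the threshold, 81 lost the call, 30 gained one and 30 turned sign. Peak areas depend on depth, which is unknown here, so a missing call cannot be told from one just under the caller's limit.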
